A study of Mus musculus with 2 samples.

Results

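Accessible chromatin at the 4 genes of the nuclear factor I (NFI) family, Nfia, Nfib, Nfic and Nfix, was examined in mouse spinal neural progenitors (NPs). The assay was ATAC-seq, which uses the Tn5 transposase to cut and tag accessible DNA for sequencing. The cells came from an Olig2-mKate2 mouse embryonic stem (ES) cell line, which makes the red fluorescent protein mKate2 together with OLIG2, a transcription factor of the progenitors of motor neurons (pMN). Cells were differentiated in culture for 5 days, with 100 nM retinoic acid (RA) and 100 nM SAG, which activates hedgehog signalling, in the last days, and mKate2-positive cells were sorted live. Each of the 2 replicate libraries was made from 50000 cells, both belonged to the only group, LIVE_ATAC, and no untreated or sorted-negative group was analysed here. The stem cells had been kept on mouse embryo fibroblast feeders, which were removed by repeated plating before differentiation. By the study's account of its method, a sort on the reporter also takes newborn motor neurons and some cells that have begun to make NKX2-2, the factor of the neighbouring p3 domain. With 1 group no difference between conditions could be tested, and all values below are levels with the spread between the libraries.

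A consensus interval was taken as a member when the transcription start site (TSS) nearest to it, among protein-coding transcripts, belonged to an NFI gene or when its centre lay in the gene record. This gave 121 of the 119502 intervals, with 28 at Nfia, 54 at Nfib, 11 at Nfic and 28 at Nfix. Of these, 7 overlapped a TSS of their own NFI gene (TSS intervals), 113 overlapped no protein-coding TSS (distal intervals), and 1 within Nfix held only the TSS of another gene, G430095P16Rik. The 20 members taken through the gene record alone had a nearer TSS of another gene, and 14 of them lay in Nfix. The interval table held 31876165 fragment counts in replicate 1 and 31672240 in replicate 2, with a median of 65 and 66 counts per interval. The NFI intervals took 31034 and 30124 of these counts, which is 0.0974% and 0.0951%, and their median was 100 and 98 counts.

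NFI proteins are transcription factors that share a conserved DNA-binding domain and bind as dimers to a palindrome made of TTGGC and its inverse. In the embryonic spinal cord NFIA and NFIB act in the change of ventricular zone progenitors from making neurons to making glia, and they mark later-born neurons as well as astrocytes. SOX9 is known to induce Nfia in this tissue, and Notch signalling acts in the same step. NFIX is known for its role in neural stem cells and fetal muscle, and NFIC for its role in tooth root formation.

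The sequences that follow show the densest distal interval of each gene, since in all 4 genes it held more counts per kb than any TSS interval. Each is the central 300 bases of the interval, read from the GRCm38 (mm10) assembly on the strand of the gene. Capitals mark the NFI hexamer, written TTGGCA on one strand and TGCCAA on the other.
Nfia intron, chr4:97840069-97840368, plus strand: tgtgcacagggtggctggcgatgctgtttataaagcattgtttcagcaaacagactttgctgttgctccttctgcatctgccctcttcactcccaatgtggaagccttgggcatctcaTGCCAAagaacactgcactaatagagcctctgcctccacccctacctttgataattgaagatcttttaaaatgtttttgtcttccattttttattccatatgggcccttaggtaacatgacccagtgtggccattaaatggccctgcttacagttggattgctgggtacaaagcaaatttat
Nfib intron, chr4:82512883-82513182, minus strand: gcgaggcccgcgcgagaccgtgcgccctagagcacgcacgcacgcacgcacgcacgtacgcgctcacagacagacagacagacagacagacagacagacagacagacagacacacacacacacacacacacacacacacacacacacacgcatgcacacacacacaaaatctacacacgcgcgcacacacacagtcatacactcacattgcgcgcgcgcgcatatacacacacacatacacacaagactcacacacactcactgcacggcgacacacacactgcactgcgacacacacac
Nfic intron, chr10:81416736-81417035, minus strand: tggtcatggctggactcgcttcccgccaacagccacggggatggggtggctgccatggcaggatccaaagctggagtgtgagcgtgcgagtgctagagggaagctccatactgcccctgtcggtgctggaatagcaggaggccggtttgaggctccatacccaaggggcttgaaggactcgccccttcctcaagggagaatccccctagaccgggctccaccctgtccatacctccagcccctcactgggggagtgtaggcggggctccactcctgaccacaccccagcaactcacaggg
Nfix upstream, chr8:84811020-84811319, minus strand: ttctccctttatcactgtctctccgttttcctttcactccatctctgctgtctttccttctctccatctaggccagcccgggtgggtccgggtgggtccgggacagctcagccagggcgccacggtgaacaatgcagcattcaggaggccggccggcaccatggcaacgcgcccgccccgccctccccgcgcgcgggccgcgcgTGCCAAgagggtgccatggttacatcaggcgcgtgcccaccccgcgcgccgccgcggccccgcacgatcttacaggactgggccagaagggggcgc
The hexamer was found 1 time in the Nfia window and 1 in the Nfix window, and none in the other two. The windows differed in composition: the Nfia stretch had a GC content of 44.3% with 1 CpG dinucleotide, and the Nfix stretch 68.3% with 30. The Nfib stretch, with 26 CpGs, is mostly simple repeats of CA and GACA letters, and 90.7% of it is masked as repeat in the assembly. Over the whole Nfib interval 37.3% was masked, against a median of 8.74% for the 113 distal intervals of the family and 9.04% for all distal intervals. How reads placed in repeats contributed to the Nfib value was not tested.

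The promoters of Nfia and Nfic are shown by the 250 bases before the most upstream TSS of the densest TSS interval, with every CpG in capitals so that their base composition can be compared. For Nfic the TSS interval with a complete annotated 5′ end was used.
Nfia promoter, chr4:97772484-97772733, plus strand: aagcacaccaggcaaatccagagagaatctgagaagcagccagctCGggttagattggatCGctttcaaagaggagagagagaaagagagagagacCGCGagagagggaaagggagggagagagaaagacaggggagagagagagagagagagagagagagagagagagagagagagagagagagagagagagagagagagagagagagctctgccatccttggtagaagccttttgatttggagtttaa
Nfic promoter, chr10:81431006-81431255, minus strand: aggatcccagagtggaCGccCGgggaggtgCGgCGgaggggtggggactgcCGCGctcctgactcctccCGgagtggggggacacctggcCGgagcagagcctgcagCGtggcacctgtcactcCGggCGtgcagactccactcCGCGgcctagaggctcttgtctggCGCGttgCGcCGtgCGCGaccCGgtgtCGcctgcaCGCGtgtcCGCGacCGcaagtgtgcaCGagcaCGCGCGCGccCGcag
CpGs numbered 4 in the Nfia stretch and 32 in that of Nfic. The Nfia stretch carries a long run of GA letters, and 66.0% of it is masked as repeat. Its GC content was 50.0%, whereas that of the Nfic stretch was 73.2%. The Nfia stretch lies before the start of Nfia-208 alone, a transcript outside the basic set of the GENCODE annotation. The starts of the main Nfia isoforms lie in another interval. That interval had a GC content of 71.9%, and the Nfic TSS interval had 67.3%.

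All 4 NFI promoters were accessible, and per kb each was below the median of the genes that had an accessible promoter. Whether this also held in counts per interval was not examined. Promoter accessibility is given here as the normalised count (count over the DESeq2 size factor) summed over the TSS intervals of a gene, per kb of their length. For Nfia it was 765 in replicate 1 and 728 in replicate 2, a mean of 746 ± 26.4 (SD, n = 2). For Nfic it was 479 and 447, a mean of 463 ± 22.4 (SD, n = 2). For Nfix it was 470 and 406, a mean of 438 ± 44.8 (SD, n = 2). The promoter of Nfib came last, with 409 and 361 and a mean of 385 ± 34.1 (SD, n = 2). Both libraries of Nfia lay above those of the other members, the libraries of Nfic and Nfix overlapped, and so did those of Nfix and Nfib.

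The median over 21866 protein-coding genes was 491, and over the 14638 with a TSS interval it was 853. Of the genes with a TSS interval, 42.4% were below Nfia, 23.5% below Nfic, 22.1% below Nfix and 18.7% below Nfib. The margin of Nfia over the others rested on 1 transcript model. Its denser TSS interval is reached only by the transcript Nfia-208, whose 3′ end is incomplete and which is outside the basic set of the GENCODE annotation. With basic transcripts only, an alternative added after the values were seen, Nfia had 492 and 457, a mean of 475 ± 24.2 (SD, n = 2), and 23.8% of the genes with a TSS interval were below it. It stayed first in each library, but its libraries then overlapped those of Nfic, at 476 and 430. The values of Nfib and Nfix did not move under that alternative. The order of the members also depended on the measure: per interval instead of per kb, Nfib was second, with 1261 normalised counts for Nfia, 1151 for Nfib, 851 for Nfix and 636 for Nfic. By the densest TSS interval alone, Nfix, at 609 per kb, came before Nfic, at 522, with Nfia at 1017 and Nfib at 385.

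The 4 genes are built from several annotated promoters, and accessible intervals covered some of them. Of 22 distinct TSS positions of protein-coding NFI transcripts, 15 lay in an interval, against 60.2% of 54340 positions over all genes. At Nfia (chr4:97772734-98118874, plus strand) the interval chr4:97771820-97773510 around the first TSS held 1754 and 1687 counts, or 1017 ± 28.6 per kb as normalised counts (SD, n = 2). The second, chr4:97777257-97778943, covered the 5 TSSs of the main Nfia isoforms and held 829 and 772 counts, or 475 ± 24.2 per kb. It also holds a TSS of the gene E130114P18Rik, which runs the other way. The earlier interval was thus the denser of the pair in both libraries. It had a GC content of 47.0%, low for a TSS interval (median 59.9%), whereas the later one had 71.9%. The TSS of the incomplete transcript Nfia-207 was 384 bp outside the nearest interval.

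At Nfib (chr4:82290173-82705750, minus strand) a single TSS interval, chr4:82504236-82507224, covered 3 start positions in the middle of the gene record. It held 1222 and 1079 counts over 2989 bases, the longest interval of the family, at 385 ± 34.1 per kb (SD, n = 2). The most upstream start of the record, that of the incomplete transcript Nfib-212, was in no interval. The interval nearest to it, 206 bp away, held 151 and 156 counts and was at 129 per kb. The accessible promoter of Nfib was thus 200 kb into the record. It holds the starts of all protein-coding Nfib transcripts of the basic set, and Nfib-212 is outside that set.

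At Nfic (chr10:81396186-81455635, minus strand) the interval chr10:81429448-81431807 around the start of Nfic-204 held 1122 and 1016 counts, or 453 ± 32.0 per kb (SD, n = 2). A short interval over a coding exon, chr10:81407455-81407841, held 192 and 212 counts, or 522 ± 36.2 per kb. It counts as a TSS interval only because Nfic-205, a transcript with an incomplete 5′ end, starts in it. The 3 starts of the other main isoforms, including Nfic-201, lay 2261 to 2334 bp from the nearest interval, and the most upstream one, of Nfic-207, 2214 bp. An interval thus lay over 2 of the 6 annotated Nfic positions, and of these only that of Nfic-204 has a complete 5′ end.

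At Nfix (chr8:84699876-84800344, minus strand) the interval chr8:84799091-84800845 covered the 3 upstream starts. It held 1177 and 961 counts, or 609 ± 87.4 per kb (SD, n = 2), the widest spread between the libraries among the TSS intervals of the family. The internal start of Nfix-203, in chr8:84773898-84776027, had 647 and 618 counts, or 297 ± 9.80 per kb. The start of Nfix-204, a transcript of the basic set, lay 502 bp outside that interval. On chromosome 8 the median TSS interval had 1129 per kb, 1.42 times the median of the other autosomes, so the Nfix promoters were low on a chromosome where TSS intervals were high. The distal median of that chromosome, 126, was close to the 123 of all distal intervals.

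**Figure D1:**
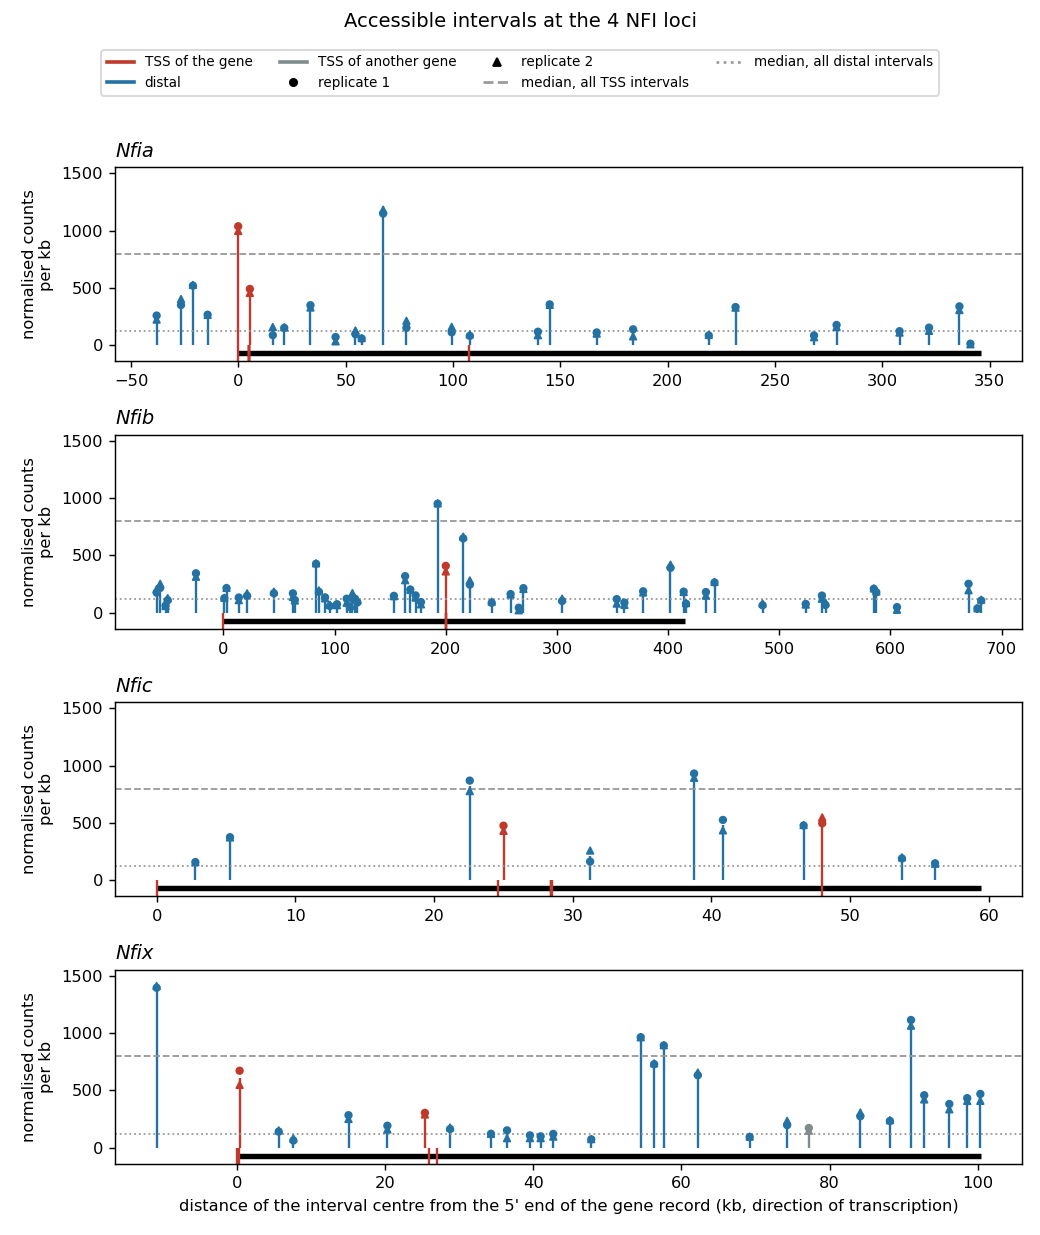
Normalised counts per kb (y) of the 121 NFI intervals against the distance of the interval centre from the 5′ end of the gene record in kb (x), in the direction of transcription. Circles and triangles are replicates 1 and 2, stems are their means, black bars are gene records with protein-coding TSSs as red ticks, and dashed and dotted lines are the medians of all TSS intervals (799) and all distal intervals (123). The highest stem of each gene is a blue distal one: 1165 for Nfia, 952 for Nfib, 911 for Nfic and 1401 for Nfix.

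In each of the 4 genes the densest interval was a distal one, in both libraries. This pattern was noticed after the values were seen. It held in 24.5% of 12398 genes with both kinds of interval (24.2% in replicate 1 and 24.9% in replicate 2). Among the 3214 genes with at least 11 intervals, the smallest number in the family, it held in 40%. Nfia, Nfib and Nfix had more intervals than that, and the share among genes with as many as theirs was not computed. The Nfia interval chr4:97839444-97840992 lay in an intron, 39.1 kb from the nearest Nfia TSS. It held 1778 and 1832 counts, or 1165 ± 24.0 per kb (SD, n = 2), and 98.7% of all distal intervals were below it. It stood 1.11 and 1.19 times as high as the densest Nfia TSS interval in the 2 libraries, so these were close.

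The Nfib interval chr4:82512437-82513627, in an intron 6.67 kb upstream of the open promoter and also in the non-coding gene Gm11266, held 1132 and 1136 counts. Its density was 952 ± 1.82 per kb (SD, n = 2), which was 2.32 and 2.64 times that of the Nfib TSS interval. The Nfic interval chr10:81416438-81417333, in an intron, held 833 and 800 counts. Its density was 911 ± 26.6 per kb (SD, n = 2), or 1.87 and 1.63 times that of the densest Nfic TSS interval. The Nfix interval chr8:84810777-84811562 lay between genes, 10.4 kb upstream of the first Nfix TSS, and held 1095 and 1108 counts. At 1401 ± 10.9 per kb (SD, n = 2) it was the densest interval of the whole family, above 99.3% of all distal intervals and 2.08 and 2.57 times the densest Nfix TSS interval.

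The order depended on the length of the intervals. By normalised count per interval instead of per kb, the ratio of the highest distal to the highest TSS interval was 1.05 for Nfia and 1.29 for Nfix, but 0.986 for Nfib and 0.764 for Nfic, where the longer TSS interval then came first. With basic transcripts only the ratio per kb was 2.46 for Nfia, 2.47 for Nfib, 2.01 for Nfic and 2.30 for Nfix, and 24.7% of 12310 genes had a distal interval on top.

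**Figure D2:**
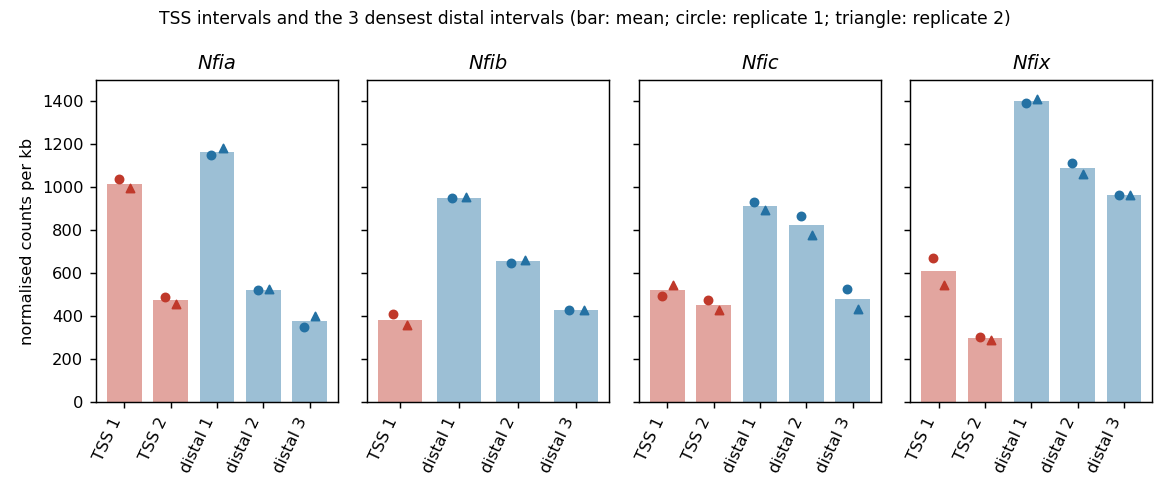
Normalised counts per kb (y) of each TSS interval and of the 3 densest distal intervals (x) of Nfia, Nfib, Nfic and Nfix. Bars are means of 2 libraries, circles replicate 1 and triangles replicate 2. The first distal bar exceeds every TSS bar of its gene in each panel, narrowly for Nfia (1165 against 1017) and widely for Nfix (1401 against 609).

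The next distal intervals of each gene showed where else accessibility was concentrated. At Nfia the second was chr4:97750953-97752214 (656 and 665 counts, 523 ± 4.74 per kb) and the third chr4:97745591-97746445 (300 and 345 counts, 377 ± 37.0 per kb), both upstream in an intron of the neighbouring gene E130114P18Rik. At Nfib they were the intronic chr4:82489660-82490477 (530 and 543 counts, 656 ± 10.9 per kb), downstream of the open promoter, and chr4:82621964-82622851 (379 and 383 counts, 429 ± 2.94 per kb). At Nfic they were chr10:81432770-81433353 (507 and 454 counts, 823 ± 64.6 per kb), 1.77 kb from the nearest TSS, and the short chr10:81414720-81414896 (93 and 77 counts, 480 ± 64.2 per kb). The densest Nfic intervals thus flanked or followed its open promoter within the gene.

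Nfix held a group of dense intronic intervals. The interval chr8:84745118-84746545 held 1375 counts in each library, 963 ± 0.556 per kb (SD, n = 2). It was 34.2% masked as repeat, and how reads placed in repeats contributed to its value was not tested. Its neighbours chr8:84743727-84744320 and chr8:84742366-84743071 had 731 ± 5.53 and 892 ± 1.49 per kb. A further Nfix interval near the end of the gene, chr8:84709119-84709589, held 524 and 501 counts, or 1088 ± 35.2 per kb. All of these lie nearer to a TSS of G430095P16Rik or Lyl1 than to one of Nfix and were taken through the gene record. The last part of the record rests on a non-coding transcript. An untranslated region of Nfix, in chr8:84706699-84708439, lies beyond all of these intervals, so they are not in that part. The intergenic interval upstream of Nfix does not depend on the use of the gene record.

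As a family, the NFI loci had lower TSS intervals and higher distal intervals per kb than the whole table. The median TSS interval of the family had 475 ± 24.2 per kb (492 in replicate 1 and 457 in replicate 2, n = 2), against 799 ± 17.7 over 14870 TSS intervals. The median distal interval had 159 ± 1.06 (158 and 160), against 123 ± 2.01 over 104632 distal intervals. The ratio of the 2 medians was 3.10 and 2.86 in the NFI loci and 6.60 and 6.25 overall. Both gaps were wider than the spread between the libraries, although 7 TSS intervals are few and the intervals of 1 gene are not independent of each other. The TSS intervals of the family were also longer, with a median of 1755 bp against 1212 bp over all TSS intervals. The gap in TSS intervals is thus one of density, and it was not examined in counts per interval. The family's median would be 813 for TSS intervals if only the 5′ end of each gene record counted as a TSS, since the 2 TSS intervals so defined belong to Nfia and Nfix.

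Strong intervals, with a mean normalised count over 100, made up 52 of the 113 distal intervals (46.0%), against 31.2% of all distal intervals. They were 9 of 26 at Nfia (34.6%), 20 of 53 at Nfib (37.7%), 6 of 9 at Nfic (66.7%) and 17 of 25 at Nfix (68.0%). All 7 TSS intervals were strong, against 92.5% of TSS intervals overall. The median distal density was 139 at Nfia, 142 at Nfib, 237 at Nfix and 374 at Nfic. The values of Nfix rested on the intervals taken through the gene record alone. With nearest TSS only, computed for each gene after the values were seen, 5 of 12 distal Nfix intervals were strong (41.7%) and their median was 119, below the 123 of all distal intervals and below the 142 of Nfib. At Nfic 6 of 8 were then strong, with a median of 427, and at Nfia 8 of 21 (38.1%), with a median of 140, while Nfib did not move. The densest distal interval of each gene stayed the same, and the family's distal median was 148. NFI distal intervals were also longer than others, with a median of 577 bp against 463 bp, and a longer interval collects more counts at a given density.

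Base composition varied between the genes as well. The median GC content of distal intervals was 46.3% at Nfia and 47.2% at Nfib, and 56.6% at Nfix and 60.0% at Nfic, against 48.4% over all distal intervals. The ratio of observed to expected CpGs in distal intervals was 0.245 in the family and 0.208 overall. In TSS intervals the family had a GC content of 63.4% and a CpG ratio of 0.744, and all TSS intervals had 59.9% and 0.680. The part of base composition in the densities was not tested.

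**Figure D3:**
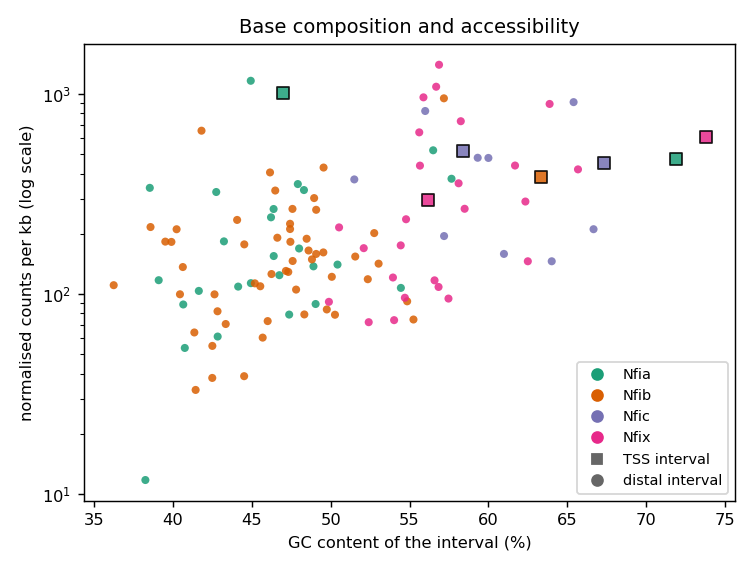
Mean normalised counts per kb (y, log scale) against the GC content in percent (x) of the 7 TSS intervals (squares) and 113 distal intervals (circles), coloured by gene. Distal intervals of Nfix and Nfic lie to the right (medians 56.6% and 60.0%) of those of Nfia and Nfib (46.3% and 47.2%), and the densest Nfia intervals, at 44.9% and 47.0%, lie on the left.

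The genes also differed in how many intervals they held and how far these spread. Nfib, with 54, had more intervals than 99.5% of protein-coding genes, Nfia and Nfix, with 28 each, more than 96.6%, and Nfic, with 11, more than 83.7%. The median gene had 3. Long genes hold more intervals, and per 100 kb of gene record the order changed, with 26.9 for Nfix, 18.5 for Nfic, 8.66 for Nfib and 6.64 for Nfia. Among the 14090 genes of at least 10 kb the median was 6.63, so Nfia, with a record of 346 kb, was at the middle, and Nfix, with 100 kb, above 98.6% of them. Nfib, with a record of 416 kb, had 18 intervals outside it, 16 of them between genes, and its intervals spanned 742 kb, the farthest 481 kb from a Nfib TSS.

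Most of the distal intervals, 82 of 113, lay in an intron of an annotated gene, which was not always the NFI gene. Some intronic Nfib intervals lay upstream of its open promoter. The others were 17 between genes, 6 over coding exons, 5 over untranslated regions and 3 over non-coding exons. Distal intervals took the larger part of the counts in every member. Their share was 69.9 ± 0.726% at Nfia, 84.9 ± 1.10% at Nfib, 67.1 ± 0.743% at Nfic and 82.8 ± 1.21% at Nfix (SD, n = 2).

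**Figure D4:**
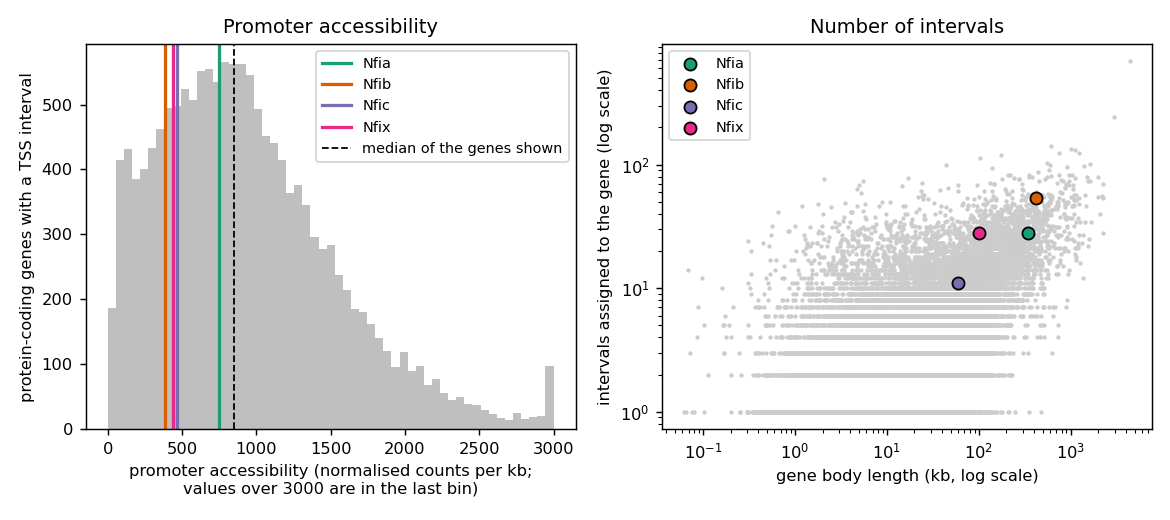
On the left, the number of protein-coding genes (y) by promoter accessibility in normalised counts per kb (x) for the 14638 genes with a TSS interval, with vertical lines at Nfia (746), Nfic (463), Nfix (438), Nfib (385) and the median (853, dashed). On the right, the number of intervals of each gene (y, log scale) against gene record length in kb (x, log scale), with every gene in grey and the NFI genes, at 54, 28, 28 and 11 intervals, in colour.

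The letters of the family's own binding site were searched on both strands in all intervals. At least 1 NFI hexamer was found in 38 of 113 distal NFI intervals (33.6%), against 26.3% of all distal intervals. Per kb the hexamers numbered 0.631 in the family and 0.568 overall. They were in 8 of 26 distal intervals of Nfia, 19 of 53 of Nfib, 1 of 9 of Nfic and 10 of 25 of Nfix. In the central 300 bases of intervals at least that long the share was 17 of 89 (19.1%) against 15.4%, and in strong distal intervals 28 of 52 (53.8%) against 39.2%. The full palindrome, TTGGC and GCCAA 5 bases apart, was in none of the 121 intervals and in 0.0650% of all distal intervals.

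The culture contained SAG and RA, so letters bound by GLI factors and by RA receptors were searched too. GACCACCCA, the core of the GLI site, was in 1 of 113 distal intervals, against 0.896% of all, and this interval was the densest of Nfia. A direct repeat of AGGTCA 5 bases apart, the form bound by RA receptors, was in 1 of 113, against 0.122% of all, in an intergenic interval 384 kb from Nfib (chr4:82120083-82121213, 237 and 240 counts, 211 ± 1.75 per kb). Both windows follow, on the plus strand, with the letters in capitals.
Nfia intron with GLI letters, chr4:97840032-97840070: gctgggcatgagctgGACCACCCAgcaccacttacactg
Nfib distal repeat, chr4:82120446-82120484: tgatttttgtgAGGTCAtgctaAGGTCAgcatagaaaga
A match of letters is not a binding site. Letters bound by Sox, proneural and homeodomain factors of NPs were also searched. The family's distal intervals held ACAAAG in 55.8% (48.2% overall), ACAATG in 31.9% (35.3%) and CAGCTG in 41.6% (36.2%). CAGATG was in 40.7% (44.0%) and TAATTA in 16.8% (13.3%). These shares rise with interval length, and NFI distal intervals were longer. Per kb, ACAAAG (1.32 in the family and 1.32 overall) and TAATTA (0.274 and 0.274) were level. ACAATG (0.655 and 0.834), CAGCTG (0.786 and 0.885) and CAGATG (0.917 and 1.14) were lower per kb in the family. The letters searched for CTCF were in none of the 113 and in 0.355% of all distal intervals. Matches this rare cannot show whether the family's distal intervals lacked CTCF sites.

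Genes that act with the family were described at their promoters, by counts and levels only. All 5 genes of a list made for SOX9, POU3F2 and Notch signalling were above the median gene of 491. Their median was 1162, and 4 of the 5 were above the 853 of genes with a TSS interval. Whether each of them acts upstream of NFI factors was not tested. Sox9, which induces Nfia, had 650 and 659, a mean of 655 ± 6.52 (SD, n = 2), and 74 intervals. Pou3f2, a factor of neural progenitors, had 959 ± 15.7, and the Notch pathway genes Notch1, Hes1 and Hes5 had 1162 ± 6.02, 1438 ± 31.8 and 1782 ± 3.08. Each of these except Sox9 was above all 4 NFI promoters in both libraries, and Sox9 was below Nfia. With basic transcripts Nfia, at 475, was below Sox9.

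Of 9 glial genes linked to NFIA, 3 were above the median gene, 2 were above the median of genes with a TSS interval, and 3 had no such interval. The early targets Apcdd1 and Zcchc24 had 1293 ± 22.0 and 1113 ± 94.7, and Mmd2 had 197 ± 24.0. Slc1a3, a glutamate transporter of radial glia and astrocytes, had 334 ± 39.1. No interval overlapped a TSS of the astrocyte genes Gfap, Aqp4 and S100b, which says that no peak was called there and not that no fragment fell there.

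The temporal factors, which change in order as spinal neurons are born, had promoter levels that overlapped between the classes, and no test was made between them. The 6 early factors ran from 237 to 749 with a median of 717. Of these 4 were above the median gene and 0 above the median of genes with a TSS interval. Onecut1 had 749 ± 6.02 and Lin28a 738 ± 33.1, while Onecut3 had 380 ± 16.2 and Lin28b 237 ± 17.0. The 4 intermediate factors ran from 282 to 1051 with a median of 793. Of these 3 were above the first of these medians and 2 above the second, with Zfhx3 at 1051 ± 23.2 and Pou2f2 at 282 ± 8.49. The 6 late factors, the class in which Nfia, Nfib and Nfix are usually placed, ran from 0 to 470 with a median of 263, and 0 were above either median. That median counts Neurod2 and Neurod6 as 0, since they had no TSS interval. The other late factors were Npas3 with 470 ± 18.1, Hopx with 424 ± 5.26, Tcf4 with 394 ± 2.41 and Zbtb20 with 133 ± 0.351. All 4 NFI promoters lay inside the early and the intermediate range, and Nfib, Nfic and Nfix also inside the late one. With basic transcripts Nfia had 475, and its libraries overlapped those of Npas3.

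Promoters of marker genes of several cell types were described by their levels. An accessible promoter does not show that its gene was expressed, so the identity of the cells was not tested. All 6 genes of pMN and NPs had a TSS interval and were above the median gene, 4 of them also above the median of genes with a TSS interval, with Olig2 at 946 ± 23.2. Of the motor neuron genes 4 of 5 had one (0 to 1087, Chat at 0). In that list 2 were above the median gene, and 1 was also above the median of genes with a TSS interval. Of the p3 and floor plate genes 2 of 3 had a TSS interval (0 to 879, Shh at 0). Here too 2 were above the first median and 1 above the second, Nkx2-2 at 879. The astrocyte and oligodendrocyte genes ran from 0 to 860, with Gfap and Aqp4 at 0. Of that list Pdgfra at 860, Aldh1l1 at 551 and Mbp at 542 were above the median gene. Of the feeder fibroblast genes 3 of 4 (0 to 248, Col1a1 at 0), of the pluripotency genes 2 of 4 (0 to 282, Pou5f1 and Nanog at 0) and of the endoderm and muscle genes 3 of 4 (0 to 458, Myf5 at 0) had one, and all were below the median gene. The part of such other cells in the NFI values was not tested.

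No NFI interval was called different between the libraries. A two-sided exact binomial comparison of the 2 libraries at each interval with Benjamini-Hochberg adjustment called 0 of 121 members at a limit of 0.01, and 0 of 119502 intervals (0%). At an unadjusted limit of 0.05, 10 of 121 members passed, against 8.39% of all intervals, so the share was near the background. With edgeR TMM factors 0 members and 6 intervals in all were called. Of the 60 strong members 0 differed over 2-fold, the largest log2 difference was 0.36, and the SD of the log2 ratio was 0.14, as over all strong intervals. The smallest adjusted p, 0.0270, was that of the upstream Nfix TSS interval in this exact binomial test, with 1177 and 961 counts and a log2 ratio of replicate 2 to replicate 1 of -0.29. Only 1 of the 7 TSS intervals of the family was higher in replicate 2, as were 33.3% of all TSS intervals.

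**Figure D5:**
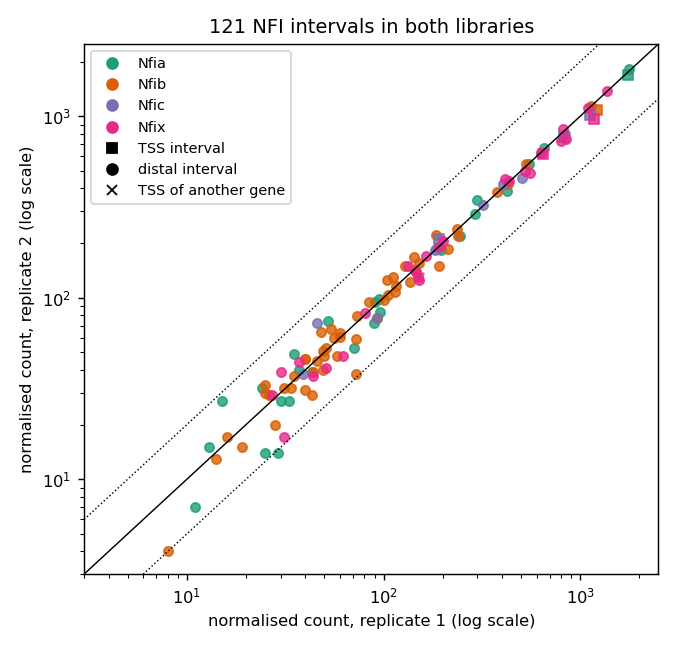
Normalised count of replicate 2 (y, log scale) against replicate 1 (x, log scale) for the 121 NFI intervals, coloured by gene, with squares for TSS intervals, circles for distal intervals and a cross for the interval at the TSS of another gene. The solid line marks equal counts and the dotted lines a 2-fold difference, and the 60 intervals with a mean over 100 all lie between the dotted lines.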

How the data were processed

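Accessibility was measured in 2 ATAC-seq libraries of 1 group. The authors deposited raw fragment counts per consensus interval, which per the file headers came from featureCounts 2.0.1 in paired mode, with a fragment counted in every interval that held at least a fraction of 0.2 of it. Per the study's methods, reads were aligned to mm10 and peaks called with MACS, and the intervals were built over more libraries than these. The 3 other columns of the table match no sample label and were left out of every step. A count can thus enter more than 1 interval, and a weak site without a called peak has no row. The labels do not say whether the replicates came from separate cultures, so the spread may be technical.

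Normalised counts were the counts over DESeq2 (1.42.0) size factors, and densities are per kb of interval. TSSs were the starts of protein-coding transcripts in GENCODE M21, which has the same assembly. The 2 libraries were compared at each interval by an exact binomial test, two-sided (scipy 1.17.1), with Benjamini-Hochberg adjustment over all 119502 intervals. It compares libraries, not conditions, and was tested on simulated data. Fragments had no molecular identifiers, so this test covers counting error only. Sequences and repeat masking were read from the GRCm38 assembly by coordinates. Alternatives covered normalisation (edgeR 4.0.16 TMM, total counts), TSS definition, assignment, low counts, counts per interval and each replicate left out. Named intervals were every TSS interval, the 3 densest distal intervals of each gene and any that differed between libraries. The neighbours of the densest Nfix intron interval, and the letter matches shown, were chosen after their values were seen, and promoter sequence upstream of the TSS was shown in place of the interval centre to leave out untranslated regions. The members and lists were chosen with earlier results of these data known. Some marker genes and promoter sequences are not reported here.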

Additional observations from a re-analysis of the deposited data

How the results depend on the processing

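The number of intervals (121) and of strong distal intervals (52) stayed within 1.5 times under every alternative run on them. With the TSS set to the 5′ end of the gene record, the median density was 813 for TSS and 169 for distal intervals, with a ratio of 4.79, and Nfib and Nfic had no TSS interval. Nearest TSS only gave a distal median of 148, a mean count of at least 10 gave 161, and basic transcripts, added after seeing the data, gave 160. Within 1 kb of a TSS the TSS median was 419 and the ratio 2.63. Per interval instead of per kb the medians were 1069 and 89.5, with a ratio of 11.8. The same medians over all intervals are not given here. Leaving out each replicate gave 457 to 492 for TSS and 158 to 160 for distal intervals, and ratios of 2.86 to 3.10. The share with the NFI hexamer was 19.1% in the central 300 bases and 53.8% in strong intervals. At an adjusted p limit of 0.05 in the exact binomial test, 1 of 121 members was called, the upstream Nfix TSS interval. Among all 119502 intervals, 33 were called at that limit.

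The ratio of the densest distal to the densest TSS interval was examined only after seeing the data. Per interval it was 1.05 for Nfia and 1.29 for Nfix, and it fell below 1 for Nfib (0.986) and Nfic (0.764), whose TSS intervals are long. With basic transcripts it was 2.46 for Nfia and 2.01 for Nfic. Without each replicate it was 1.11 to 1.19 for Nfia, 2.32 to 2.64 for Nfib, 1.63 to 1.87 for Nfic and 2.08 to 2.57 for Nfix. No paired analysis was possible because only 1 group was labelled. With 2 libraries an SD is imprecise, and intervals near 10 counts cannot be ranked.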

Other observations

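The weakest NFI intervals were at the limit of the assay. The interval over the end of Nfia (chr4:98113461-98114226) had 11 and 7 counts, or 11.8 normalised counts per kb. An intronic Nfib interval (chr4:82439980-82440160) had 8 and 4 counts, or 33.2 per kb.

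The letters ATGCAAAT, the octamer bound by POU factors, were in 4 of 113 distal intervals of the family (3.54%), against 4.0% of all distal intervals. All 4 belonged to Nfib. Among the TSS intervals the letters were in 1 of 7, the denser one of Nfia, against 3.99% of all TSS intervals. Matches were searched on both strands, the intervals were picked out after their values were seen, and no test was made.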
